A study of Vuilleminia comedens with 3 samples.

Results

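The transcripts described here are those that code for small GTPases and for the parts of G protein signalling in the wood-decay fungus Vuilleminia comedens. They were chosen by the product name of their best-matching database entry. A name was taken in if it held small GTPase, GTP-binding protein, G protein, heterotrimeric, RasGEF, RasGAP, adenylate cyclase or pheromone receptor, the separate words ras, rab, ypt or RGS, or similar words, and left out if it held kinase or elongation factor. G protein was read as separate words, because as plain letters it also sits inside every name that ends in -ing protein, and then 2798 transcripts would have been taken in. The rule found 181 transcripts from 149 assembler genes, which is 0.801% of the 22605 transcripts with an annotation and a small part of all 81106 assembled transcripts. No measured level was used to choose them. They carried 35 distinct product names. No nucleotide or protein sequence of these transcripts was used here, so a name stands for the matched entry in another fungus and not for a function measured in V. comedens.

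V. comedens is a crust-forming basidiomycete of dead attached branches, and the study sequenced its RNA to build a transcriptome of the fungus growing on wood. All 3 libraries belong to a single group: strain VcWVJH1 was grown on 0.5% malt extract and allowed to colonise autoclaved beech blocks of 2 cm3 for about 8 weeks. With the outer mycelium scraped off, 2 blocks were then kept together on perlite for 7 days at 20 °C in the dark, with an elastic band around them for the first 3 days. RNA came from the side of the blocks that had touched, and messenger RNA was made into stranded libraries. The design text calls the libraries independent biological replicates from separate blocks, and all of them come from the same strain. There is no second condition, so every value below is a description of this state and no test between conditions was possible.

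Small GTPases and the alpha subunits of heterotrimeric G proteins are molecular switches: they are active with GTP bound and inactive with GDP bound. Exchange factors (GEFs) load them with GTP, GTPase-activating proteins (GAPs) and RGS proteins speed up GTP hydrolysis, and GDP-dissociation inhibitors (GDIs) hold small GTPases in the inactive form away from membranes. In fungi, Ras proteins and heterotrimeric G proteins pass on nutrient and mating signals, partly through adenylate cyclase and kinase cascades, and Rab proteins direct vesicle traffic.

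The columns of the deposited count table carry no sample names, so the libraries are called A, B and C. Total counts were 111754018, 68151997 and 64236917, and 33450738, 22487890 and 19747416 of these lay outside the pair of transcripts that took most reads. The 181 transcripts took 0.216% of the reads of A, with a Clopper-Pearson interval at 95% from 0.215 to 0.217, 0.231% of those of B (0.230 to 0.232) and 0.208% of those of C (0.207 to 0.209). These intervals cover counting error only, since the reads carried no molecular identifiers. A count of 0 allows up to 3 counts, which for a transcript of 1 kb is 0.0268 RPKM for A, 0.0440 for B and 0.0467 for C. RPKM is the count per kilobase of transcript and per 1000000 counts of the library. Over the 72 of the 181 transcripts with at least 100 reads in all, the libraries differed by more than sampling noise, with a median chi-square of 8.05 to 15.5 for a pair, and they were treated as 3 separate libraries.

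Summed over all 181 transcripts, the level was 1478, 1514 and 1471 RPKM in A, B and C, always given in that order here, with a mean of 1488 ± 23.2 (SD, n = 3). The pool as a whole was thus nearly the same in the 3 libraries. A few transcripts held most of it. The 6 highest gave 62.1% of the summed RPKM and 46.8% of the reads, and the 20 highest gave 87.1% and 79.3%. Of the 181, 23 (12.7%) had a mean of at least 10 RPKM, against 10.8% of all annotated transcripts, so the share was close to the background. Just above that level was a transcript for the prenylated Rab acceptor PRA1 (TRINITY_DN22636_c0_g1_i1) at 10.1 RPKM ± 0.895 (SD, n = 3), and just below it one for heterotrimeric G protein alpha subunit 4 (TRINITY_DN22849_c0_g2_i1) at 9.09 ± 1.38 (SD, n = 3). The median over the 181 was 0.268 RPKM, against 0.488 over all annotated transcripts, and 0.169 without library A. Among transcripts of at least 500 bp the order of the medians was the other way round, with 2.60 for the 91 here and 1.63 for all annotated. In bulk RNA from wood, fewer hyphae that make a transcript and less of it per hypha cannot be told apart.

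Sorted by role, the Ras class was the largest in level among the names the rule took in. Related names outside the rule, given further below, are not part of this order. Its 29 transcripts summed to 527, 531 and 576 RPKM. The 49 transcripts for heterotrimeric G protein subunits summed to 456, 469.8 and 432, and the 19 of the Rab family to 190.2, 190.4 and 198. Exchange factors, GAPs and GDIs were the largest class by number, with 58 transcripts, but summed to only 152, 159 and 116 RPKM. Far below stood the single RGS transcript at 45.7 RPKM ± 5.42 (SD, n = 3), the G-protein-coupled receptors at 0.764 ± 0.766 (SD, n = 3; 0.323 without library A) and adenylate cyclase at 0.493 ± 0.208 (SD, n = 3). Among the classes described, the order from Ras down to the RGS protein was the same in each library. The receptors lay above adenylate cyclase in libraries A and C and below it in library B. No transcript carried the name pheromone receptor, and none of the 181 fell in the classes for Arf and Sar or for Ran.

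**Figure D1:**
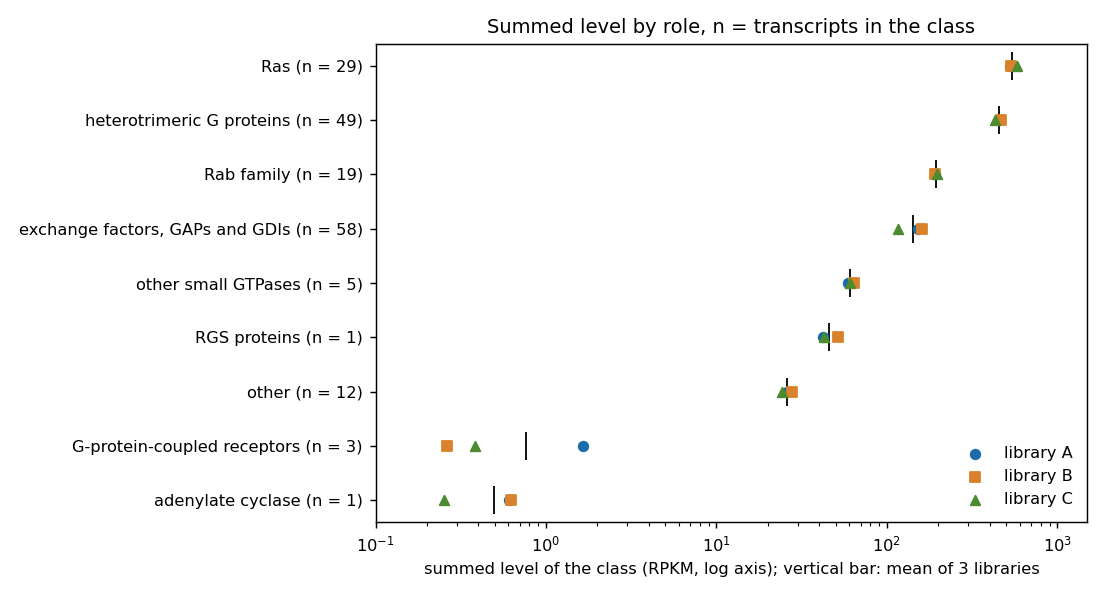
Summed level of each role class (horizontal log axis, RPKM) in libraries A, B and C, with the mean of the 3 libraries as a vertical bar and the number of transcripts after the class name. The Ras class lies at 527 to 576 RPKM and the classes down to the RGS protein keep their order in every library, while the 3 receptor transcripts spread from 0.264 RPKM in library B to 1.65 in library A.

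Ras proteins relay nutrient and growth signals in fungi. The ras-like protein transcript TRINITY_DN18149_c0_g1_i1, matched to PUNSTDRAFT_101767 of Punctularia strigosozonata, had 25761, 15904 and 15885 counts, or 257, 259.9 and 275 RPKM. Its mean of 264 ± 9.995 (SD, n = 3) was the highest of the 181, its 3 values lay within 1.07-fold of each other, and none overlapped those of any other of these transcripts. The next in the class was the ras-domain-containing transcript TRINITY_DN39489_c0_g1_i1 (PUNSTDRAFT_49188), with 92.9, 124 and 130.3 RPKM and a mean of 116 ± 20.1 (SD, n = 3). The ras protein transcript TRINITY_DN13348_c0_g1_i1 (PUNSTDRAFT_109796) followed with 107, 83.9 and 107, a mean of 99.2 ± 13.3 (SD, n = 3). Library A was the lowest for the first of this pair and library B for the second, and the values of the pair overlapped. The domain name covers the whole Ras superfamily, so it does not tell a true Ras from another small GTPase. With 20 transcripts it was the most frequent name in the class.

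Other ras-domain-containing transcripts lay lower. TRINITY_DN28167_c0_g1_i1 (PUNSTDRAFT_79061, 3111 bp) had 22.7, 26.3 and 23.7 RPKM, a mean of 24.2 ± 1.87 (SD, n = 3). The isoforms of TRINITY_DN27116_c0_g1 (PUNSTDRAFT_112325) had means of 6.96 ± 0.703 and 6.50 ± 0.804 (SD, n = 3), and those of TRINITY_DN26113_c0_g1 (PUNSTDRAFT_48706) 6.15 ± 1.55 and 5.84 ± 1.37 (SD, n = 3). None of their values overlapped those of the leading 3 transcripts of the class. The rest of the class reached at most 3.59 RPKM. Of the 29 transcripts, 11 had their best match in P. strigosozonata and these held 36.0% of the summed RPKM of the 181, against 0.601% for the 18 matched to Trametes versicolor.

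Among Rab proteins, Ypt1 is known from yeast as the GTPase of transport from the endoplasmic reticulum to the Golgi. Its transcript TRINITY_DN17961_c0_g1_i1 (PUNSTDRAFT_121010, 854 bp) had 11642, 7702 and 7720 counts, or 122, 132 and 141 RPKM, a mean of 132 ± 9.39 (SD, n = 3). It made up most of the Rab class. The ras-like transcript was 2.01 ± 0.0832 times as high (SD, n = 3), and this ratio was one of the steadiest, at 2.10, 1.96 and 1.96 in the 3 libraries. The rab-type small GTP-binding protein transcript TRINITY_DN29438_c0_g1_i1 (PUNSTDRAFT_139913, 4097 bp) had 16.8, 15.5 and 13.6 RPKM, a mean of 15.3 ± 1.62 (SD, n = 3). PRA1, a membrane protein that binds prenylated Rab proteins and is not itself a GTPase, had 3 isoforms that summed to 48.5, 40.5 and 42.7 RPKM, a mean of 43.9 ± 4.09 (SD, n = 3). Its library A value was the highest for each isoform. Rab5 and Ypt5, GTPases of early endosomes, were represented only by fragments and low transcripts: 3 transcripts named RAB5 with 0.0926 to 0.194 RPKM and 1 named ypt5 with 0.281.

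The name small GTPase alone was given to both isoforms of TRINITY_DN26135_c0_g1, matched to STEHIDRAFT_123487 of Stereum hirsutum. They had means of 34.3 ± 1.88 and 25.8 ± 2.22 RPKM (SD, n = 3), and together 56.8, 63.6 and 59.95 RPKM. The name does not say to which subfamily they belong. The sources used here do not say to which isoform a shared read was counted, so the split within an assembler gene is less certain than its sum. In all, 20 assembler genes had 2 or more isoforms among the 181, with 52 transcripts between them.

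Heterotrimeric G proteins consist of an alpha, a beta and a gamma subunit and sit below membrane receptors. The alpha subunit B transcript TRINITY_DN25259_c0_g1_i1 (PUNSTDRAFT_98192, 1624 bp) had 30577, 23189 and 18995 counts, or 168, 209.5 and 182 RPKM, a mean of 187 ± 20.9 (SD, n = 3). It was second of all 181, with library B the highest, and in each library lay below the ras-like transcript and above that of Ypt1. The 39 alpha subunit transcripts together had 252, 305 and 265 RPKM, so this single transcript carried most of their sum. Another alpha subunit, assembler gene TRINITY_DN27923_c1_g1 with matches to T. versicolor, had 4 isoforms here at 22.9 ± 4.52, 22.2 ± 4.38, 2.72 ± 0.265 and 2.40 ± 0.422 RPKM (SD, n = 3). Its isoforms summed to 44.1, 60.9 and 45.5 RPKM, again with library B the highest. Another isoform of this gene was matched to a guanine nucleotide-binding protein alpha-3 subunit of P. strigosozonata, a name outside the rule, and had 5.96 ± 0.846 RPKM (SD, n = 3).

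Alpha subunit 4 was represented by 14 transcripts. The isoforms of TRINITY_DN22849_c0_g2, matched to T. versicolor, had 14.5 ± 1.52 and 9.09 ± 1.38 RPKM (SD, n = 3). Those of TRINITY_DN23924_c0_g1 (PUNSTDRAFT_74494) had 0.810 ± 0.244 and 0.804 ± 0.162 (SD, n = 3), and 5 isoforms of TRINITY_DN25763_c0_g1 with that same match summed to 0.827 ± 0.194 (SD, n = 3). Another transcript of this subunit with a T. versicolor match, TRINITY_DN15082_c0_g1_i1, had 0.407 ± 0.255 RPKM (SD, n = 3), a mean below those of both isoforms of TRINITY_DN23924_c0_g1. Short alpha subunit transcripts also included 5 with the match STEHIDRAFT_88154, of which TRINITY_DN17094_c0_g2_i1 (1.87 ± 0.531 RPKM), TRINITY_DN17094_c0_g3_i1 (1.62 ± 0.301) and TRINITY_DN17094_c0_g1_i1 (1.39 ± 0.161; SD, n = 3) had at least 100 reads. They are 295 to 372 bp long. TRINITY_DN9241_c0_g1_i1, the only transcript of the 181 matched to Moniliophthora roreri, had 1.44 ± 0.313 RPKM (SD, n = 3).

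The gamma subunit, the small membrane-anchored partner of the beta subunit, had a pair of abundant transcripts with the same match, PUNSTDRAFT_89346. TRINITY_DN20456_c0_g1_i1 (1336 bp) had 149.7, 117 and 112 RPKM, a mean of 126 ± 20.5 (SD, n = 3). TRINITY_DN20794_c0_g1_i1 (815 bp) had 44.4, 41.9 and 48.0, a mean of 44.8 ± 3.10 (SD, n = 3). The longer one was the higher in each library, by 3.37, 2.81 and 2.33 times, and the ratio was largest in library A. The alpha subunit B transcript was 1.13, 1.78 and 1.63 times as high as the longer gamma transcript. Of the 6 gamma transcripts matched to T. versicolor, TRINITY_DN19338_c0_g1_i1 reached 5.66 ± 1.04 RPKM (SD, n = 3) and the others less than 1. Beta subunits under the searched names were only a pair of fragments that summed to 0.178 ± 0.124 RPKM (SD, n = 3). Most beta subunits of this annotation carry the name guanine nucleotide binding protein beta subunit, which the rule does not take in. The highest of them, TRINITY_DN27307_c0_g1_i1 (PUNSTDRAFT_130030), had 66.2, 64.4 and 53.7 RPKM, a mean of 61.4 ± 6.80 (SD, n = 3), and the alpha subunit B transcript was 2.54, 3.25 and 3.39 times as high.

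RGS proteins switch alpha subunits off. The only RGS transcript, TRINITY_DN23454_c0_g1_i1 (PUNSTDRAFT_142736, 2435 bp), had 42.4, 51.9 and 42.7 RPKM, a mean of 45.7 ± 5.42 (SD, n = 3), and was seventh of the 181. Its values lay below those of the 6 highest transcripts without overlap. Library B was the highest, as for the alpha subunit B. Among all annotated transcripts with at least 100 reads, this held for 59.5% of those of 2000 to 4000 bp. It held for 43.2% of those of 1000 to 2000 bp.

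As classes, receptors and the cyclase had the lowest sums, while their leading transcripts ranked 75 and 77 of the 181 by RPKM. The family A G protein-coupled receptor-like transcript TRINITY_DN26689_c0_g1_i2 (PUNSTDRAFT_136275) had 148, 1 and 22 counts, or 1.48, 0.0164 and 0.382 RPKM. Library A was far above the others, by 90.3-fold over library B, where counting error alone gives an exact 95% interval of 15.95 to 3589. The isoform TRINITY_DN26689_c0_g1_i1, which has no annotation, had 416, 46 and 64 counts and was also highest in library A. Without library A the mean of the annotated isoform fell from 0.625 to 0.199 RPKM. The 2 transcripts named putative G-protein coupled receptor had 4 counts in library A and 5 in library B between them. The adenylate cyclase-like transcript TRINITY_DN14644_c0_g1_i1 (PUNSTDRAFT_63254, 801 bp), named after the enzyme that makes cyclic AMP, had 54, 34 and 13 counts, or 0.603, 0.623 and 0.253 RPKM. Library C was the lowest, with a ratio of 2.47 between libraries B and C and an interval of 1.27 to 5.09. Both intervals are for libraries picked as highest and lowest, and they do not allow for this choice.

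Regulators of small GTPases were many and mostly low. The 58 included 22 ras GEFs, 12 GDIs and 1 ras GTPase-activating protein. The ras GTPase-activating protein TRINITY_DN29566_c0_g1_i1 (PUNSTDRAFT_92475, 2815 bp) stood out among them with 39.9, 47.1 and 29.1 RPKM, a mean of 38.7 ± 9.08 (SD, n = 3). Second was the rab GDP-dissociation inhibitor TRINITY_DN6584_c0_g1_i1 (2569 bp, match in T. versicolor), which recycles Rab proteins from membranes, with 37.9, 34.5 and 30.1 RPKM and a mean of 34.2 ± 3.93 (SD, n = 3). Library C was the lowest for both. All other regulators were below 10 RPKM.

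Among ras GEFs, which load Ras with GTP, TRINITY_DN28685_c0_g1_i1 (PUNSTDRAFT_118271) was the highest at 2.92 ± 0.448 (SD, n = 3). The 3 isoforms of TRINITY_DN29913_c0_g1 (PUNSTDRAFT_122523) summed to 6.82 ± 1.85 RPKM and the 4 of TRINITY_DN29994_c0_g1 to 7.77 ± 0.654 (SD, n = 3). All 12 GDI transcripts had their best match in T. versicolor, and 11 of them were under 500 bp.

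Summed together, the Ras and Rab classes and the class named by small GTPase had 1.70, 1.67 and 1.93 times the RPKM of the heterotrimeric subunits, a mean of 1.77 ± 0.143 (SD, n = 3). Library C gave the highest of these ratios. The ratio covers only names the rule took in. Outside it, G-alpha-domain-containing proteins summed to a mean of 303 RPKM and guanine nucleotide binding protein subunits to 101. On the other side, ARF/SAR names summed to 172. Names with GTP binding protein summed to 262, but they do not say whether a small GTPase is meant. They include cell division control/GTP binding protein. The Rab class also held PRA1, at 43.9 RPKM, and the small GTPase class 3 transcripts named small GTPase-binding protein.

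A further 12 transcripts bind GTP or are named for G proteins in other ways. G protein pathway suppressor 1, known in mammals as a subunit of the COP9 signalosome, was led by TRINITY_DN26857_c0_g1_i2 at 10.5 ± 1.96 RPKM (SD, n = 3). The root hair defective 3 GTP-binding protein TRINITY_DN29481_c0_g1_i1 (PUNSTDRAFT_98755), named after a plant GTPase that shapes the endoplasmic reticulum, had 10.3 ± 2.07 (SD, n = 3). Obg/CgtA, a GTPase of ribosome assembly in bacteria and organelles, had 2.80 ± 0.376 RPKM (TRINITY_DN21048_c0_g1_i2; SD, n = 3). The other transcripts of this kind had less than 1 RPKM.

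Among the 20 highest transcripts, the order was firm only in places. Of the 20 steps from each to the next lower one, 6 were between transcripts whose 3 values did not overlap and 8 had the same direction in all libraries. Without overlap, the ras-like transcript exceeded alpha subunit B, alpha subunit B exceeded Ypt1, and the ras protein exceeded the RGS protein. Ypt1, the longer gamma transcript, the ras-domain transcript PUNSTDRAFT_49188 and the ras protein overlapped from each to the next. The longer gamma transcript was above the ras-domain transcript in library A, at 1.61 times its level, and below it in libraries B and C, at 0.946 and 0.857 times.

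**Figure D2:**
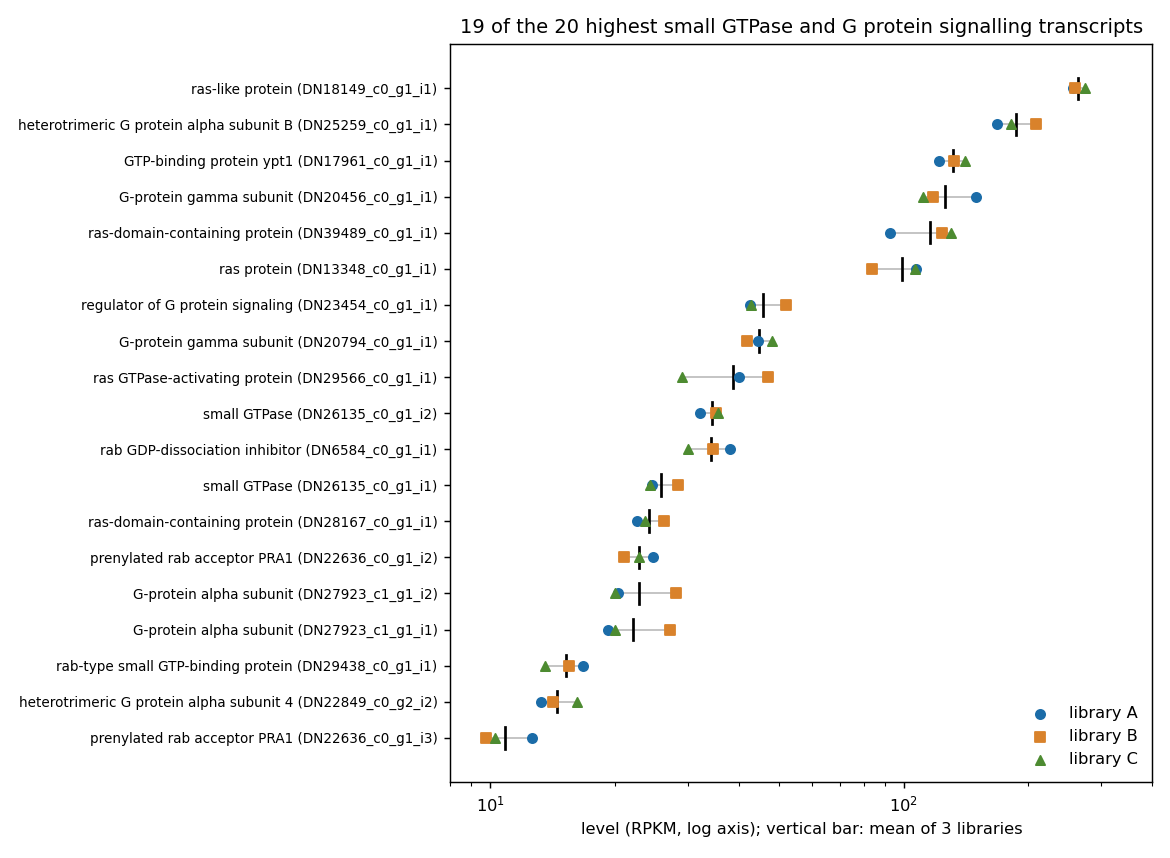
Level (horizontal log axis, RPKM) of 19 of the 20 highest small GTPase and G protein signalling transcripts in libraries A (circles), B (squares) and C (triangles), with the mean as a vertical bar and a line over the range. The ras-like transcript lies at 257 to 275 RPKM, to the right of all others, and a gap separates the 6 highest from the RGS transcript at 45.7.

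The species of the best match split the 181 by length and level. P. strigosozonata was the best match of 55, T. versicolor of 116, S. hirsutum of 9 and M. roreri of 1. The 55 had a median length of 1336 bp and held 82.8% of the reads, while the 116 had a median length of 315 bp and held 13.4%. Of the 116, 81 (69.8%) were under 500 bp, against 67.0% of all annotated transcripts with a T. versicolor match. Of the 55, 2 (3.64%) were, against 17.1% with a P. strigosozonata match. Of the P. strigosozonata matches, 16 of 55 (29.1%) reached 10 RPKM, against 18.3% of all annotated transcripts with that match. Of the T. versicolor matches, 5 of 116 (4.31%) did, against 4.54%. Medians were 3.22 against 1.60 RPKM for P. strigosozonata and 0.134 against 0.152 for T. versicolor. With at least 500 bp they were 3.30 against 2.07 and 0.408 against 1.01. Fewer than 10 reads in all were found for 49 of the 181 (27.1%), against 20.8% of all annotated transcripts, and 46 of these were T. versicolor matches (39.7% of the 116, against 36.9%) and 1 a P. strigosozonata match (1.82%, against 2.92%).

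**Figure D3:**
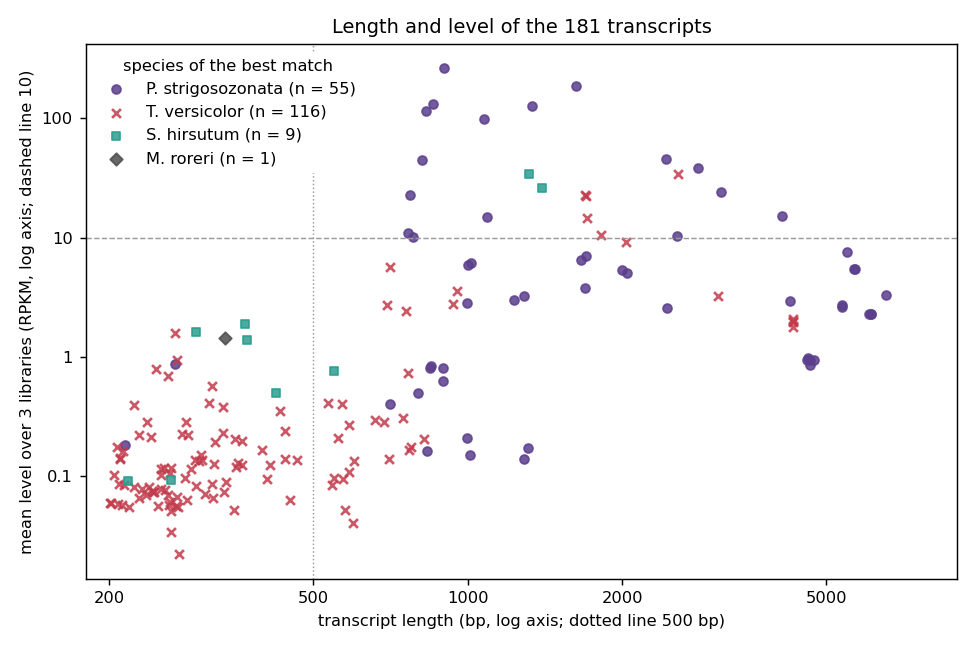
Mean level (vertical log axis, RPKM) against transcript length (horizontal log axis, bp) for the 181 transcripts, by the species of the best match, with lines at 10 RPKM and 500 bp. The 23 transcripts at 10 RPKM or more are all at least 500 bp long, and the 81 short T. versicolor matches fill the lower left.

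Of the product names, 12 occurred with both P. strigosozonata and T. versicolor. For 11 of them the highest transcript with a P. strigosozonata match was above the highest with a T. versicolor match. The values were 187 against 0.401 RPKM for alpha subunit B, 132 against 0.116 for ypt1 and 99.2 against 0.408 for ras protein. They were 126 against 5.66 for the gamma subunit and 2.92 against 2.06 for ras GEF, the closest of these pairs. Alpha subunit 4 was the exception, with 0.810 against 14.5. The rab GDP-dissociation inhibitor had no P. strigosozonata counterpart among the 181.

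Short transcripts with a T. versicolor match were also the ones most unevenly read. Of the 108 transcripts with at least 20 reads, library A alone gave over 90% of the depth-scaled reads of 7 (6.48%), against 2.82% of all annotated transcripts, and all 7 matched T. versicolor. Within that match these were 7 of 46 (15.2%), against 8.21% of all T. versicolor matches, and for P. strigosozonata 0 of 54, against 0.0563%. The 7 included PRA1 (TRINITY_DN46430_c0_g1_i1) with 27, 0 and 0 counts, a rab GDP-dissociation inhibitor (TRINITY_DN19570_c0_g1_i2) with 47, 2 and 0, and a ras-domain-containing transcript (TRINITY_DN20029_c0_g2_i1) with 39, 2 and 0. Library B gave over 90% for 2 of 108 (1.85%, against 0.29%). These were 1 of the 54 P. strigosozonata matches (against 0.101%) and the ras-domain-containing TRINITY_DN10817_c0_g1_i1 with 0, 26 and 0 counts, 1 of the 46 T. versicolor matches (against 0.573%). Library C gave over 90% for 0 of 108, against 0.0264% of all annotated transcripts, 0.0113% of P. strigosozonata matches and 0.0395% of T. versicolor matches. Counts were 0 in libraries B and C alike for 39 of the 116 T. versicolor matches (33.6%), the same share as over all annotated transcripts with that match (33.6%). Library A was also the deepest, and whether depth or RNA of another fungus had a part in this was not tested.

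**Figure D4:**
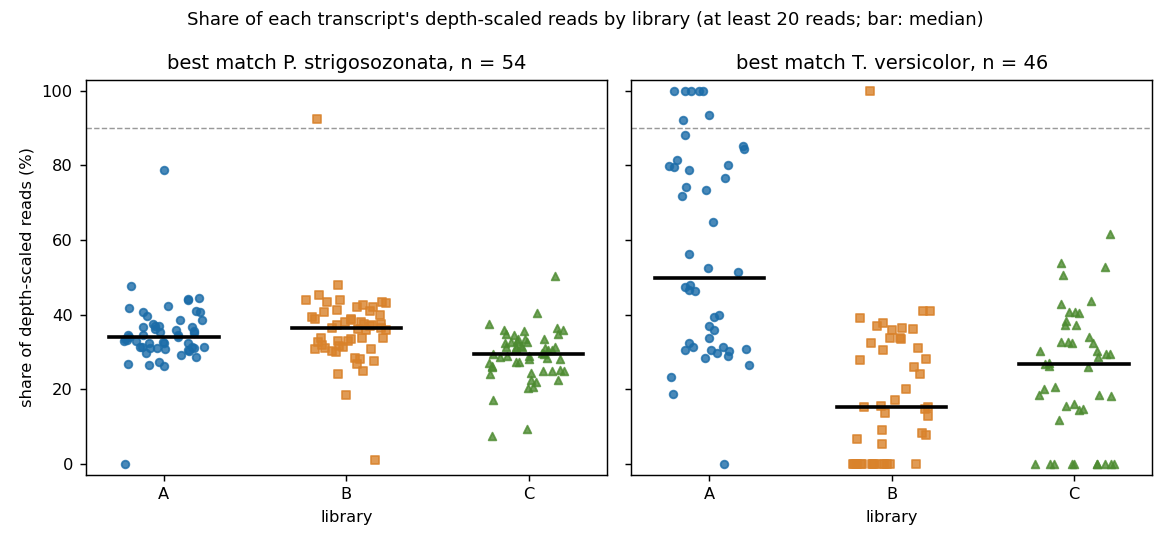
Share of each transcript's depth-scaled reads (vertical axis, percent) that came from libraries A, B and C, for transcripts of at least 20 reads with a P. strigosozonata match (left, 54 transcripts) or a T. versicolor match (right, 46), with the median as a bar and a dashed line at 90%. The left medians are 33.9, 36.4 and 29.5%, and the right ones 49.7, 15.2 and 26.8%, with 7 points above 90% in library A.

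Between libraries, few of the transcripts with at least 100 reads differed over 2-fold. Of the 72 with at least 100 reads, 4 (5.56%) differed over 2-fold between the highest and the lowest library, against 17.5% of all annotated transcripts with that many reads. The median fold was 1.39, against 1.47. Summed by assembler gene, 6 of 50 were over 2-fold, a larger share, and no such share was computed for all annotated genes. Without library A the count of transcripts was 0 of 63, and without library B or library C it was 2 of 66. A fold over 2 libraries cannot exceed that over 3, and the matching shares of all annotated transcripts were not computed. The 4 were the receptor-like and the cyclase-like transcripts described above and a gamma and an alpha subunit with T. versicolor matches. By match they were 2 of 47 (4.26%, against 15%) for P. strigosozonata and 2 of 18 (11.1%, against 22.3%) for T. versicolor. The gamma subunit TRINITY_DN21511_c0_g1_i1 had 146, 6 and 17 counts, 14.8-fold more in library A than in B (exact 95% interval 6.66 to 41.1), and its mean without library A was 0.230 RPKM in place of 0.722. The alpha subunit TRINITY_DN16078_c1_g1_i1 (269 bp) had 68, 29 and 15 counts, 2.61-fold more in library A than in C (1.47 to 4.91). These intervals do not allow for the choice of the highest and lowest library. All 4 transcripts had fewer than 200 reads in all, so none of the abundant switch proteins was among them.

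Regulators tended to be high in library B and low in library C. Of the 27 exchange factors, GAPs and GDIs with at least 100 reads, 22 were highest in library B and 20 lowest in library C. Of all 72, these numbers were 38 and 33, and of the 11455 annotated transcripts with that many reads 5171 and 4753. The median ratio of library B to C was 1.36 for the regulators, 1.14 for the 72 and 1.10 for all annotated. For the Ras class the median was 0.913 over 12, and no comparison with other transcripts of the same length was made for it. Of these 27 regulators, 24 are at least 2000 bp long, and over all annotated transcripts the ratio of B to C rose with length, from a median of 0.929 at 500 to 1000 bp to 1.31 at 4000 bp and more. Of the regulators of at least 2000 bp, 20 of 24 (83.3%) were highest in library B, with a median ratio of 1.34, against 62.4% and 1.22 for all annotated transcripts of that length. At 4000 bp and more, where 19 of the 24 lie, the median ratios were 1.32 for the regulators and 1.31 for all annotated, and the shares highest in library B 89.5% and 78.5%. These 24 transcripts come from only 12 assembler genes. The part of length in the shift was not tested.

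**Figure D5:**
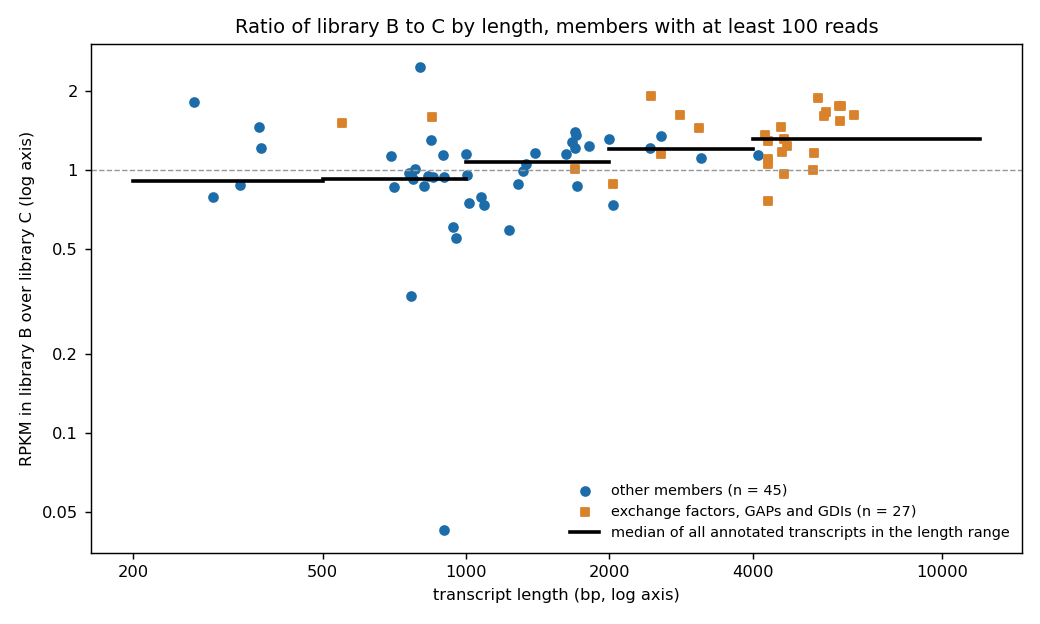
Ratio of the level in library B to that in library C (vertical log axis) against transcript length (horizontal log axis, bp) for the 72 transcripts of at least 100 reads, with the 27 exchange factors, GAPs and GDIs as squares and the median of all annotated transcripts in each length range as a bar. The bars rise from 0.911 at 200 to 500 bp to 1.31 at 4000 bp and more, where 19 of the squares lie.

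Transcripts of neighbouring pathways, which the rule did not take in, were gathered by name for context. A list for polarity effectors held 24 transcripts, all of them septins, GTP-binding filament proteins of septa and hyphal tips. Of these, 2 reached 10 RPKM: TRINITY_DN17957_c0_g1_i1 (PUNSTDRAFT_110260) with 132, 163 and 142 RPKM, a mean of 146 ± 15.9 (SD, n = 3), and TRINITY_DN26329_c0_g1_i1 (PUNSTDRAFT_54241) with 98.4, 122 and 105, a mean of 109 ± 12.4 (SD, n = 3). The order B, C, A was the same for both septins. In each library both septins lay below alpha subunit B and the ras-like transcript. Their means were nearer to those of the longer gamma transcript (126 RPKM) and the ras-domain transcript PUNSTDRAFT_49188 (116 RPKM).

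A cyclic AMP list, gathered by the words for its kinase and for phosphodiesterases, held 24 transcripts. Of these, 3 were at 10 RPKM or more, and the median was 2.05 RPKM. Most of them were phospholipase C-like or sphingomyelin phosphodiesterases, which do not cleave cyclic AMP. The regulatory subunit of cyclic AMP-dependent kinase, TRINITY_DN22119_c0_g1_i1, had 16.6, 22.1 and 26.5 RPKM, a mean of 21.7 ± 4.97 (SD, n = 3). Of 11 mitogen-activated kinase transcripts, 2 reached 10 RPKM: TRINITY_DN24497_c0_g1_i1 with 21.97 ± 2.90 and TRINITY_DN23013_c0_g1_i1 with 14.4 ± 1.08 (SD, n = 3). The list had a median of 1.05 RPKM.

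Arf, Sar and Ran are GTPases of vesicle budding and nuclear transport. A list gathered by these words held 33 transcripts, with 10 at 10 RPKM or more and a median of 0.893. Its highest were TRINITY_DN28109_c0_g1_i1, named ARF/SAR, at 31.6 ± 1.51 RPKM and the nuclear GTPase RAN, TRINITY_DN21628_c0_g1_i1, at 31.4 ± 3.88 (SD, n = 3). By its letters this list also took in names that are not GTPases of this family. They were the peptide chain release factor eRF/aRF, ran/spi1 binding protein and an Arf GTPase activator. The highest release factor transcript, TRINITY_DN24773_c0_g1_i1 at 14.0 ± 3.24 RPKM (SD, n = 3), and the activator were among the 10. This Arf GTPase activator, TRINITY_DN25129_c0_g1_i1, was also the only transcript found by the words for regulators outside the rule, at 13.1 ± 1.15 RPKM (SD, n = 3).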

How the data were processed

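Messenger RNA of 3 libraries from 1 group was sequenced. The authors deposited raw counts per assembled transcript with transcript lengths, in a table without column names, so columns went to the group, not to replicate numbers. The submitters' processing notes name SAMtools 0.1.19, Bowtie2 2.2.6 and cutadapt 1.2.1 without their roles. No source used here gives the assembler, the counting rule, the use of strand or the search thresholds. Of 29875 annotation lines, 22605 remained without repeats, with a best match each. Values of isoforms, near-identical copies and overlapping genes are therefore uncertain.

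From the deposited counts, RPKM and residual CPM (per 1000000 counts outside the first 2 transcripts) were computed with Python 3.11.15, pandas 2.3.3, NumPy 2.4.6 and SciPy 1.17.1, and drawn with matplotlib 3.10.9. Depth-scaled shares use the whole library totals. TMM scaling (edgeR 4.0.16) and DESeq2 1.42.0 size factors in R 4.3.3 were alternatives. Intervals are exact (Clopper-Pearson) at 95%. Those of ratios between libraries were computed after the highest and lowest library had been picked, and do not allow for that choice. The formulas for levels and folds were written out again and tried on simulated counts. The code that gave the reported values was not itself run on them.

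Members and lists were chosen with earlier results of these data known. Role classes follow words of the product names. The name ras GEF and a spelling of GAP were put with the regulators after the names had been seen. Some members counted in the totals are not reported here. Named were the 20 highest members of at least 300 bp and 100 reads, the 2 highest of each class, every heterotrimeric subunit, RGS protein, adenylate cyclase or pheromone receptor of at least 100 reads and the 5 with the largest fold between libraries, where reported here. Other transcripts named were chosen after their values were seen.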

Additional observations from a re-analysis of the deposited data

How the results depend on the processing

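The summed level of the members was 6989 ± 224 residual CPM (SD, n = 3). It was 2182 CPM scaled to the whole total, 5789 with P. strigosozonata matches only, 6533 without names matched only by GTP-binding protein and 74692 with G protein read as plain letters. The median of 0.268 RPKM became 0.883 scaled to the counts outside the first 2 transcripts, 0.853 with at least 10 reads, 2.60 with at least 500 bp, 3.22 with P. strigosozonata matches only and 0.615 with plain letters. The 23 members at 10 RPKM became 39 of 181 and 280 of 2798 under the first and last of these settings. The 4 members over 2-fold became 109 of 181 with no minimum of reads, 2 of 47 with P. strigosozonata matches only and 205 of 1542 with plain letters. Apart from the split by match, shares of all annotated transcripts were computed only at the main setting, at 10.8% and 17.5%. The counts at other settings therefore have no background and do not describe a trait of the members. With each library left out in turn, the sum ranged from 6880 to 7104, the median from 0.169 to 0.331, the count at 10 RPKM from 21 to 23 and the count over 2-fold from 0 without library A to 2 without B or C. TMM scaling, DESeq2 size factors and sums by assembler gene moved neither level by over 1 SD and neither count by over 1.5 times. Summing by assembler gene cannot change the summed level, so for that value this setting was no check. By assembler gene the count over 2-fold was 6 of 50, against 4 of 72 by transcript, so the share rose. Of 48 levels of named members and classes, 3 moved over 1.5-fold without library A: the gamma subunit TRINITY_DN21511_c0_g1_i1, the receptor-like TRINITY_DN26689_c0_g1_i2 and the receptor class, whose sum became 0.323 RPKM. The plain-letter reading was chosen after seeing the data. The settings differ by definition in the total used for scaling, in the transcripts counted or in the libraries kept. No other cause of these shifts was tested. No paired analysis was possible because there is 1 group and its columns carry no replicate numbers. Counts under 10 limit the low transcripts, where 3 counts can decide a ratio.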

Other observations

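Names close to the rule held further transcripts with related names, and they were chosen after their values were seen. G-alpha-domain-containing proteins, named after the alpha subunit domain, had 25 transcripts that summed to 329, 360.1 and 219 RPKM for A, B and C, a mean of 303 ± 73.9 (SD, n = 3). Their highest, TRINITY_DN28229_c0_g1_i2 (PUNSTDRAFT_128076, 3437 bp), had 89661, 51434 and 24648 counts, or 233, 219.6 and 112 RPKM, a mean of 188 ± 66.7 (SD, n = 3). Library C was the lowest by a wide margin, and the mean stood close to that of alpha subunit B. The next, TRINITY_DN29620_c0_g1_i1 (PUNSTDRAFT_82781), had 23.9, 32.1 and 33.0 RPKM, with library A the lowest.

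No product was named pheromone receptor, but 16 transcripts were named STE3-domain-containing protein, after the family of pheromone receptors first known from yeast. They summed to 58.5, 62.2 and 88.1 RPKM, a mean of 69.6 ± 16.1 (SD, n = 3). The isoforms of TRINITY_DN26019_c0_g1 (PUNSTDRAFT_91224) made up most of this sum, with means of 26.4 ± 7.58 and 26.1 ± 6.84 RPKM (SD, n = 3), and library C was the highest for both. These levels were far above the 0.764 RPKM of the receptors under the searched names.

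The spelling GTP binding protein, without a hyphen, occurred in 16 transcripts, led by TRINITY_DN21562_c0_g1_i1 (PUNSTDRAFT_59700) with 140.3, 167 and 151 RPKM, a mean of 153 ± 13.4 (SD, n = 3).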
